A study of Danio rerio with 16 samples.

Results

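Muscle myosin is a hexamer of a pair of heavy chains, which carry the motor, with an essential and a regulatory light chain clasped around the neck of each heavy chain. The zebrafish heart builds it from chamber-specific heavy chains, an atrial one encoded by myh6 (also called amhc) and ventricular ones encoded by vmhc and its close relative myh7l (also called vmhcl), and from light chains that both chambers use. The chamber myosins described here are the 7 genes with the symbols vmhc, myh7l, myh7, myh6, myl7, cmlc1 and myl4. They were taken by exact symbol from the count files, and 6 of the 7 have a row among the 15419 genes counted. All 6 passed the filter on low counts and were among the 11750 genes tested.

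vmhc is the symbol without a row, in the counts and in the FPKM table alike, so no value is given under that name. RefSeq's gene table for the zebrafish assembly GRCz12tu lists vmhc as a synonym of myh7, and smyhc3 as another. The symbol smyhc3 also has a row of its own in the counts, which did not pass the filter on low counts. RefSeq places myh7 and myh7l next to each other with 0 annotated genes between them. Whether the reads counted under myh7 are those of the gene known as vmhc was not tested. The heavy chain genes are close relatives, and the counts leave out reads that align to more than 1 place, so how reads were divided among myh7, myh7l and myh6 is uncertain to that extent.

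The tissue was hearts isolated from zebrafish embryos of the Tubingen strain at 48 hours post-fertilization (hpf), pooled within each library and sequenced as poly(A)-selected RNA. The DKO group (8 libraries) was rbfox1l-/-; rbfox2-/-, homozygous for frameshift deletions of both genes (alleles chb5 and chb6), and the CTRL group (8 libraries) was labelled as sibling control, with no further genotype, where the series' design text speaks of wild type. Rbfox1l and Rbfox2 are RNA-binding regulators of splicing in muscle. According to the methods, hearts of both groups carried the Tg(myl7:GFP) reporter, driven by the promoter of myl7, which is itself 1 of the genes described here. The comparison asks how the chamber myosin transcripts differed in hearts without both Rbfox proteins.

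Of the chamber myosins, myh7l is the one the study also assayed by quantitative RT-PCR, and its oligos are shown because they name the stretch of transcript by which this gene was followed. Both are 20 bases long with 11 G or C bases, and neither was placed on a genome here.
myh7l forward: gaacgcagggatgccttact
myh7l reverse: cgtgcctcagacttcgcata

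Depth was 9321265 to 18783628 gene reads in DKO and 8809208 to 12991978 in CTRL libraries. The targeted genes matched the labels. rbfox1l had 37.7 to 93.8 CPM (reads relative to library depth, scaled by the trimmed mean of M-values, TMM) in DKO and 261 to 666 CPM in CTRL libraries, and rbfox2 had 23.5 to 39.6 CPM in DKO and 47.6 to 154 CPM in CTRL libraries. At an adjusted p under 0.05 in edgeR's quasi-likelihood test, 13.9% of all genes were lower in DKO and 13.2% higher. By that criterion 12 of 20 tested cardiomyocyte markers, none of them a myosin gene, were lower (median log2 fold change -0.83). The summed level of these markers was 8155 to 19586 CPM in DKO and 17744 to 35439 CPM in CTRL libraries. Of the erythroid genes, 12 of 12 tested were lower (summed level 11.4 to 73.3 CPM in DKO and 3831 to 9961 CPM in CTRL). Of 6 epidermal genes listed, 3 were tested and all 3 were higher (summed level 8576 to 18287 CPM in DKO and 2322 to 10098 CPM in CTRL). The part of these shifts in the myosin results was not tested beyond the ratios and the alternative scaling given below. From the reads of pooled hearts alone, fewer cells of a type and less RNA per cell cannot be told apart. For ventricular cardiomyocytes at the same stage, the study reports by microscopy that DKO hearts had similar numbers to controls, with smaller cells. The share of cardiomyocytes among all cells of these pools was not tested.

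Among the chamber myosins, the ventricular heavy chain gene myh7l and the light chain genes cmlc1 and myl7 fell in DKO hearts, whereas myh7, myh6 and myl4 did not pass the test. A gene was called at an adjusted p under 0.05, a change of over 1.5-fold and an FPKM (fragments scaled for depth and gene length) above 5 in at least 1 library, with p from edgeR's quasi-likelihood test over all genes tested. By this rule 3 of the 6 measured chamber myosins were lower, against a background of 4.66% of all genes. The count of chamber myosins that were higher was 0, against 3.32%, and it was also 0 at an unadjusted p under 0.05 and with DESeq2. All 6 genes met the FPKM limit. Without that limit, 1004 of the 11750 genes tested were called lower and 1065 higher, against 548 and 390 with it. When libraries were instead scaled to cardiomyocyte markers, as described below, 1 of the 6 was called lower (myh7l) and 2 were called higher (myh7 and myl4). Of all 11750 genes tested, that scaling called 69 lower and 2709 higher. With TMM the median log2 fold change was -0.71 over the 6 genes and 0.02 over all genes tested.

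**Figure D1:**
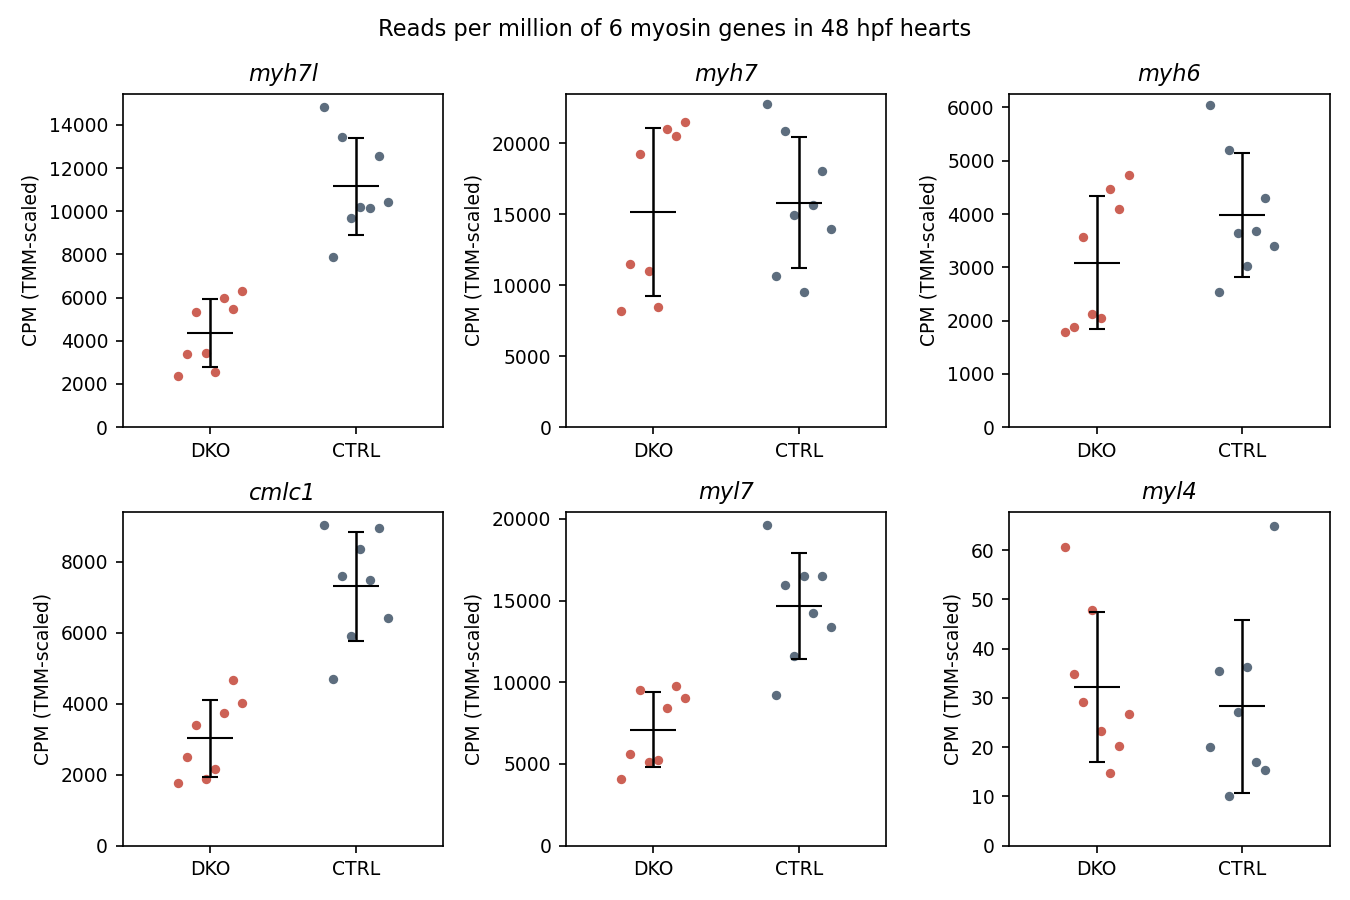
TMM-scaled CPM of the 6 measured chamber myosin genes in each library, with DKO on the left and CTRL on the right of each panel. Points are libraries in order of replicate number, horizontal bars are means and error bars are 1 SD (n = 8 each). For myh7l and cmlc1 every DKO library lies below every CTRL library, while for myh7 and myl4 the groups overlap widely. For myh6 they overlap in part, with 4 DKO libraries below every CTRL library.

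myh7l, a ventricular heavy chain, had a lowest, median and highest level of 2363, 4391 and 6328 CPM in DKO libraries, against 7905, 10314 and 14835 CPM in CTRL libraries. The groups did not overlap. The means were 4358 ± 1587 CPM in DKO and 11151 ± 2264 CPM in CTRL (SD, n = 8 each). The log2 fold change was -1.36 with an SE of 0.20 (adjusted p = 4.83e-05).

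myh7, the heavy chain that RefSeq gives vmhc as a synonym, had the highest mean CPM of the chamber myosins in both groups, with no correction for length. Its lowest, median and highest levels were 8162, 15384 and 21535 CPM in DKO libraries, against 9533, 15323 and 22782 CPM in CTRL libraries. The ranges lay almost on top of each other. The log2 fold change was -0.06 (SE 0.23, adjusted p = 0.894), and it took the opposite sign under scaling to library size alone (0.08) or to cardiomyocyte markers (0.70).

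myh6, the atrial heavy chain, spanned 1795 to 4724 CPM in DKO libraries with a median of 2846, against 2540 to 6050 CPM with a median of 3666 in CTRL libraries. Of the 8 DKO libraries, 4 lay below every CTRL library and the other 4 fell within the CTRL range. The log2 fold change of -0.37 (SE 0.23) did not pass (adjusted p = 0.274), and it was 0.40 when scaled to cardiomyocyte markers.

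cmlc1, the essential light chain of both chambers, had 1768, 2951 and 4661 CPM as lowest, median and highest level in DKO, against 4694, 7555 and 9046 CPM in CTRL libraries. The highest DKO library stayed just under the lowest CTRL library. The means of 3023 ± 1084 CPM in DKO and 7315 ± 1539 CPM in CTRL (SD, n = 8 each) lay apart by -1.27 on the log2 scale, with an SE of 0.20 (adjusted p = 7.71e-05). Scaled to cardiomyocyte markers the difference was -0.51 (adjusted p = 0.0076), under the fold limit of the call. Together with myh7l it makes 2 of the 6 genes whose groups did not overlap with DKO lower, where 4.38% of all genes did so.

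myl7 (cmlc2), the regulatory light chain whose promoter drives the GFP reporter, had 4058, 7012 and 9760 CPM as lowest, median and highest level in DKO, against 9247, 15100 and 19638 CPM in CTRL libraries. Of the CTRL libraries, 7 of 8 lay above every DKO library, and 1 fell inside the upper end of the DKO range. The means were 7093 ± 2310 CPM in DKO and 14638 ± 3246 CPM in CTRL (SD, n = 8 each). The log2 fold change was -1.05 with an SE of 0.19 (adjusted p = 4.36e-04). Scaled to cardiomyocyte markers it was -0.26 (adjusted p = 0.136) and no longer called.

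myl4, the counterpart of the human atrial essential light chain gene, was read at a small fraction of the level of the others. It had 14.7 to 60.7 CPM in DKO libraries with a median of 28.0, against 10.2 to 65.0 CPM with a median of 23.5 in CTRL libraries. These rest on 136 to 956 reads in DKO and 103 to 637 reads in CTRL libraries, against at least 21270 for each of the others. The log2 fold change was 0.19 (SE 0.35, adjusted p = 0.743), and it was -0.0026 without DKO replicate 1. The highest values of either group, DKO replicate 1 and CTRL replicate 8, were also the libraries of that group with the highest sum of skeletal muscle markers (223 CPM in DKO replicate 1, among 116 to 223 CPM in DKO, and 346 CPM in CTRL replicate 8, among 73.9 to 346 CPM in CTRL). Of the 6 skeletal muscle markers tested, 0 passed in either direction, with 0 lower and 1 higher at an unadjusted p under 0.05 in edgeR and 0 past an adjusted p of 0.05 in DESeq2, where 13.9% and 13.2% of all genes were lower and higher. Higher skeletal markers numbered 1 in limma on FPKM and 3 under the marker scaling, where the median log2 fold change of all genes was 0.89. Whether the reads of myl4 came from heart or from skeletal muscle was not tested. myl4 is counted among the 6 genes because the set was taken by symbol.

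The chamber myosins other than myl4 moved together from library to library. DKO replicates 1, 2, 4 and 5 had the 4 lowest DKO values of myh7l, myh7, myh6, cmlc1 and myl7. The same libraries had the lowest sums of cardiomyocyte markers among DKO libraries (8155 to 11106 CPM, against 17253 to 19586 CPM in the other 4). In CTRL, replicate 2 was lowest for myh7l, myh6, cmlc1 and myl7, and also for those markers (17744 CPM), while replicate 1 was highest for all 5 genes and for the markers (35439 CPM). The epidermal sum tended the other way. In DKO it was highest in replicates 1, 2 and 4 (18287, 16348 and 14045 CPM), but replicate 5 (13320.5 CPM) lay below replicate 6 (13431.9 CPM). In CTRL it was 8749 CPM in replicate 2 and 2528 CPM in replicate 1, within 2322 to 10098 CPM. Its part in the myosin levels was not tested. The coefficient of variation of myh7l was 36.4% over DKO and 20.3% over CTRL libraries, and that of myh7 was 38.9% and 29.2%.

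The genes were also compared as ratios of their reads in the same library, which no scaling between libraries can alter. A shift that both genes of a pair share to the same extent cancels in such a ratio. A shift in the share of atrial and ventricular cells need not cancel, and its part in the ratios was not tested. All 15 pairs of the 6 measured genes were tested with a two-sided exact permutation test of the difference in mean log2 ratio, adjusted over the 15 pairs. Of these, 12 passed, and for 6 the groups did not overlap. Of the 10 pairs without myl4, 9 passed. The 15 pairs share the same 6 genes, so they are not separate results. The share of pairs that would pass among all genes was not worked out. The smallest unadjusted p this design allows is 0.0001554.

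The clearest division was between the neighbouring heavy chain genes. There were 0.267 to 0.314 myh7l reads for each myh7 read in DKO libraries (median 0.292), against 0.643 to 1.07 in CTRL libraries (median 0.673). The 8 DKO libraries lay in a narrow band, with an SD of 0.07 on the log2 scale, and CTRL replicate 5, at 1.07, stood above the other CTRL libraries. The mean log2 ratio was -1.79 in DKO and -0.47 in CTRL, a difference of -1.31 (adjusted p = 0.0003885), or -1.23 without CTRL replicate 5.

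Set against the atrial heavy chain, myh7l and myh7 went opposite ways. There were 1.24 to 1.81 myh7l reads per myh6 read in DKO libraries (median 1.34), against 2.45 to 3.38 in CTRL libraries (median 2.84). The groups were apart, with a log2 difference of -0.9995 (adjusted p = 0.0003885). myh7 had 4.12 to 6.13 reads per myh6 read in DKO (median 4.85) and 3.15 to 4.26 in CTRL libraries (median 4.10). These ranges overlapped slightly, and the ratio was higher in DKO by 0.31 on the log2 scale (adjusted p = 0.001166).

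The ventricular to atrial ratio was defined as vmhc plus myh7l over myh6, which reduces to myh7l over myh6 because vmhc has no row. Its log2 difference was -0.9995 (exact permutation p = 0.0001554). With myh7 and myh7l summed over myh6, an alternative chosen after the absence of vmhc was seen, there were 5.36 to 7.94 reads of myh7 and myh7l per myh6 read in DKO and 6.22 to 7.30 in CTRL libraries. The CTRL range lay inside the DKO range, and the log2 difference of -0.11 did not pass (exact permutation p = 0.1459). By RefSeq's naming, with vmhc a synonym of myh7, the ratio as defined is the one with myh7 and myh7l summed. By that naming, myh7l over myh6 leaves vmhc out. Whether the reads under myh7 are those of vmhc was not tested.

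**Figure D2:**
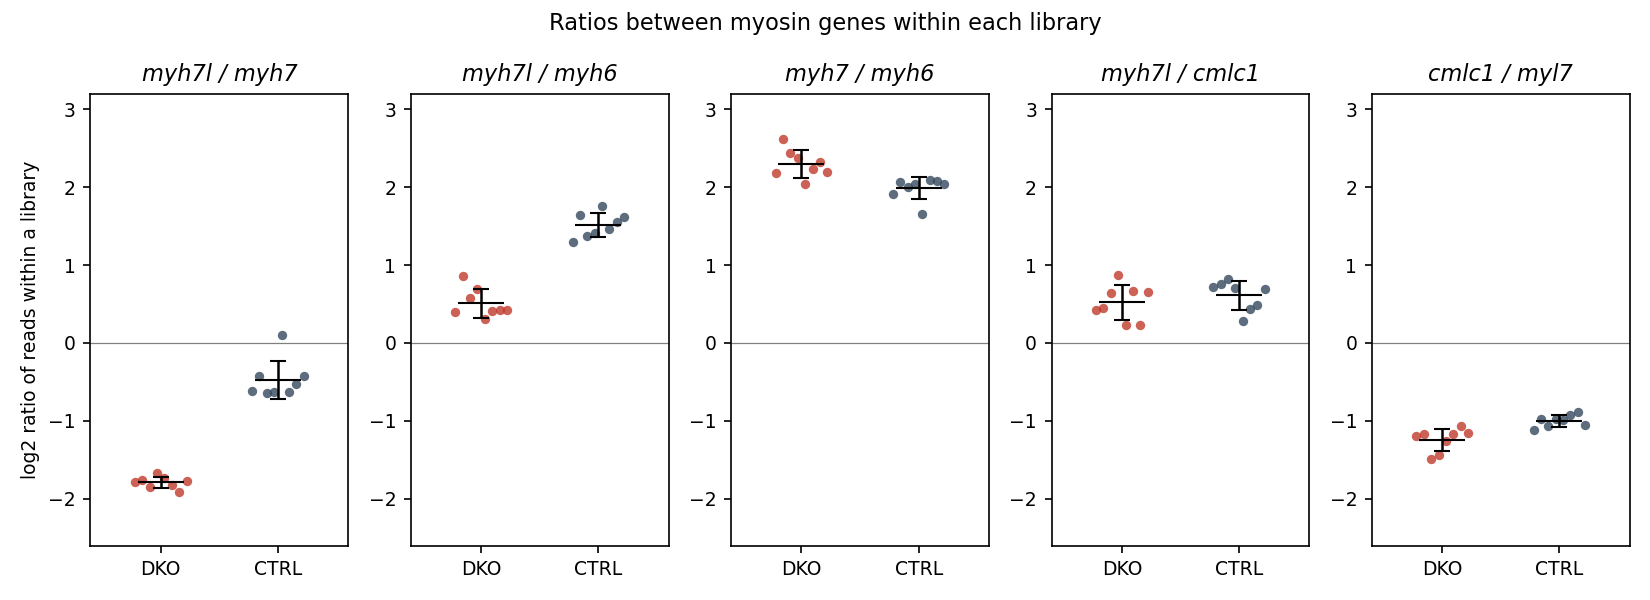
Log2 ratio of reads of 1 myosin gene over another within the same library, with DKO on the left and CTRL on the right. Points are libraries, horizontal bars are means and error bars are 1 SD (n = 8 each). The DKO and CTRL libraries are apart for myh7l over myh7 and for myh7l over myh6, overlap slightly for myh7 over myh6, and overlap for myh7l over cmlc1 and for cmlc1 over myl7.

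As shares of the reads of all 3 measured heavy chain genes, myh7 made up 64.8 to 68.5% in DKO and 41.9 to 53.1% in CTRL libraries. myh7l made up 18.2 to 20.8% in DKO and 34.0 to 44.8% in CTRL. The atrial share, that of myh6, was 11.2 to 15.7% in DKO (mean 13.7 ± 1.41, SD, n = 8) and 12.05 to 13.9% in CTRL libraries (mean 12.8 ± 0.62, SD, n = 8). The ranges of the atrial share overlapped, while those of myh7 and of myh7l were apart. Counted against myh7l alone, myh6 took 35.6 to 44.7% in DKO and 22.8 to 29.0% in CTRL libraries. These shares restate the ratios above and were not tested again.

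**Figure D3:**
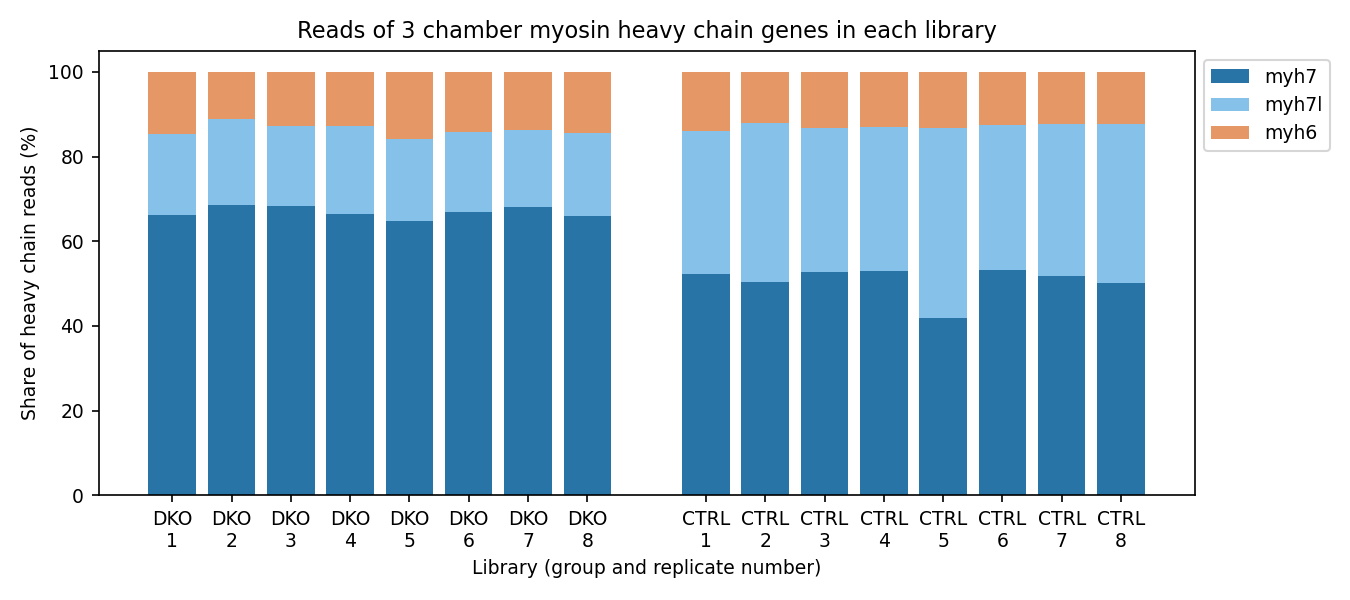
Share of the reads of the 3 measured chamber heavy chain genes that fell on each, in percent, for the 8 DKO libraries (left) and the 8 CTRL libraries (right). The myh7l segment is 18.2 to 20.8% in DKO and 34.0 to 44.8% in CTRL libraries, and the myh6 segment at the top is near 13% in both groups.

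Among the light chains, cmlc1 and myl7 kept a narrow ratio to each other. There were 0.356 to 0.478 cmlc1 reads per myl7 read in DKO (median 0.440) and 0.461 to 0.543 in CTRL libraries (median 0.507). The ranges overlapped, and the ratio was lower in DKO by a log2 difference of -0.24 (adjusted p = 0.000999).

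myh7l and cmlc1 fell by like amounts, and their ratio did not pass the test. It was 1.17 to 1.82 in DKO (median 1.46) and 1.22 to 1.76 in CTRL libraries (median 1.63), with a log2 difference of -0.09 (adjusted p = 0.4051). myh7l fell more than myl7, with a log2 difference of -0.34 in their ratio (adjusted p = 0.004144).

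The heavy chains myh7 and myh6 both stood higher against the light chains in DKO. The log2 difference was 1.22 for myh7 over cmlc1, 0.98 for myh7 over myl7, 0.91 for myh6 over cmlc1 and 0.66 for myh6 over myl7 (adjusted p = 0.0003885 for each). In all 4 of these ratios every DKO library lay above every CTRL library. Summed over the 3 heavy chains and the light chains cmlc1 and myl7, a grouping made after the values were seen and given as a description, there were 1.77 to 2.59 heavy chain reads per light chain read in DKO and 0.914 to 1.68 in CTRL libraries.

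The ratios to myl4 were the widest, with SDs of 1.04 to 1.19 on the log2 scale. Relative to myl4, myh7l differed by -1.70 (adjusted p = 0.01189), cmlc1 by -1.60 (adjusted p = 0.01547) and myl7 by -1.36 (adjusted p = 0.02894), all lower in DKO. The last did not pass when DKO replicate 1 or 4 or CTRL replicate 1, 3, 6 or 7 was left out (largest adjusted p = 0.05847), nor with all libraries when medians were compared in place of means (adjusted p = 0.05866). myh7 and myh6 relative to myl4 did not pass, with log2 differences of -0.38 (adjusted p = 0.5158) and -0.70 (adjusted p = 0.2808).

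The fold changes themselves moved with the scaling. Libraries were also scaled to the median of 20 cardiomyocyte markers, whose log2 fold changes with TMM ran from -2.10 (csrp3) to 0.41 (foxn4). The median log2 fold change of all genes tested then became 0.89, and the values of the chamber myosins shifted upward with it. myh7l was then at -0.59 (adjusted p = 0.00283) and still called, while cmlc1 and myl7 were not. Under the same scaling myh7 was at 0.70 (adjusted p = 0.00154) and myl4 at 1.13 (adjusted p = 0.0334), both called higher, and myh6 was at 0.40 (adjusted p = 0.0301). Relative to the median gene of that scaling, all but myl4 lay lower. Setting the values against that median largely undoes the marker scaling, so it is no separate check of the TMM result.

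**Figure D4:**
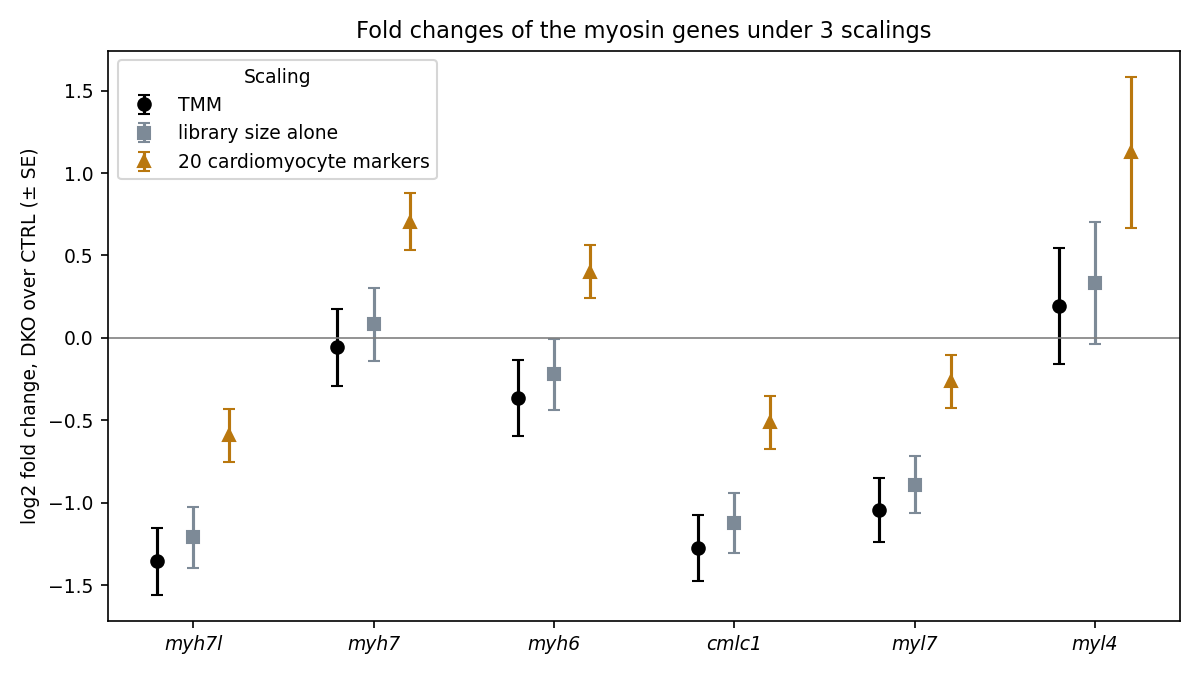
Log2 fold change, DKO over CTRL, of the 6 measured chamber myosin genes under 3 scalings of the libraries, with error bars of 1 SE. Circles are TMM, squares are library size alone and triangles are the median of 20 cardiomyocyte markers. myh7l, cmlc1 and myl7 stay below 0 under each of these, whereas myh7 and myh6 lie above 0 under the marker scaling.

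Levels between genes need a correction for transcript length, which the FPKM table does not give. The length behind each FPKM, worked out from the counts, ran between 0.799 kb for cmlc1 and 15.3 kb for myh7l, and for each of the 6 genes it lay within 9 bases of the whole gene span in RefSeq, introns included. The order on this scale moves with the introns of each gene and cannot be read as an order of transcript levels. In FPKM per span, the order in CTRL hearts was cmlc1 (8612 ± 1387), myl7 (1758 ± 304), myh7 (1117 ± 301), myh7l (687 ± 115), myh6 (633 ± 164) and myl4 (5.07 ± 3.34), each as mean ± SD over 8 libraries. The ranges of the neighbours myl7 and myh7, myh7 and myh7l, and myh7l and myh6 overlapped. In DKO hearts the order was cmlc1 (3952 ± 1363), myh7 (1182 ± 436), myl7 (947 ± 296), myh6 (543 ± 207), myh7l (297 ± 101) and myl4 (6.38 ± 3.22). There the ranges of myh7, myl7, myh6 and myh7l each overlapped with that of the next. Of the summed FPKM of myh6 and myh7l, myh6 held 58.8 to 67.6% in DKO and 43.3 to 51.3% in CTRL libraries, above its share of their reads given earlier because its span of 5.93 kb is shorter than that of myh7l.

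For each chamber myosin, the 3 tested genes with the steadiest ratio to it over the 16 libraries were taken as the most alike, by the SD of the log2 ratio. This SD covers both groups, so a steady ratio requires a like difference between DKO and CTRL. For myh7l the nearest genes were sh3bgr (SD 0.16), irx1a (0.17), a transcription factor gene of the ventricle, and adprhl1 (0.17). The median SD over all genes was 0.95. The log2 fold changes of the 3 were -1.39, -1.31 and -1.38, against -1.36 for myh7l. For cmlc1 the nearest were hspb1 (0.09), which encodes a small heat shock protein, crip2l (0.12) and again irx1a (0.14). For myl7 they were bves (0.11), which encodes a membrane protein of muscle, smpx (0.13) and aldoaa (0.14), an aldolase gene of glycolysis.

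For myh7 the nearest were cobl (0.15), tnni3k (0.18), which encodes a cardiac kinase, and flot1a (0.19). For myh6 they were dcaf6 (0.15), si:ch211-233h19.2 (0.15) and mylk2 (0.16), a myosin light chain kinase gene. For myl4 they were tnnt2c (0.35), atp2a1 (0.43), the calcium pump of fast skeletal muscle, and chrnd (0.43), a subunit of the muscle acetylcholine receptor. These SDs for myl4 were larger than for any of the others. Each value is a description over the 16 libraries, which share depth and composition.

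Other sarcomeric heavy chains, most of them of skeletal muscle, did not pass the test. Of 14 listed, 8 had a row and 6 were tested, and 0 passed an adjusted p under 0.05 in either direction in edgeR, where 13.9% of all genes were lower and 13.2% higher by that criterion. The count was 0 as well at an unadjusted p under 0.05 and with DESeq2. Their single fold changes ran from -0.75 for myhc4 to 0.43 for myhz1.1 on the log2 scale with SEs of 0.22 to 0.68. Their median log2 fold change of -0.18 had no settled sign, as it was 0.29 without CTRL replicate 8 and -0.36 without DKO replicate 3. Under the marker scaling it was 0.71, where the median of all genes was 0.89. Of the other sarcomeric light chains, 4 of 9 were tested and 1 passed, mylz3, a light chain gene of fast muscle, at 73.2 ± 20.9 CPM in DKO and 161 ± 38.1 CPM in CTRL hearts (log2 fold change -1.14, adjusted p = 6.30e-05). Its DKO and CTRL libraries did not overlap, but it did not pass under the marker scaling (-0.28, adjusted p = 0.242).

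Myosin II of non-muscle and smooth muscle cells was mixed. Of the 7 genes tested, 1 was higher and 3 were lower at an adjusted p under 0.05, against 13.2% and 13.9% of all genes. Under the marker scaling 4 were higher and 0 lower, where the median log2 fold change of all genes was 0.89. The non-muscle heavy chain gene myh9a rose to 698 ± 188 CPM in DKO, against 249 ± 122 CPM in CTRL hearts (log2 fold change 1.49, adjusted p = 5.16e-04). The epidermal markers, given above, were also higher in DKO, and their part in this value was not tested. The regulatory light chain genes myl9a and myl9b fell by 0.99 (adjusted p = 1.16e-04) and 0.73 (adjusted p = 0.00415) on the log2 scale, and the essential light chain gene myl6 by 0.72 (adjusted p = 0.00857), although none of the 3 passed under the marker scaling, where myl9b and myl6 changed sign.

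The list of myosin partners took in proteins of the thick filament and M-band, myosin light chain kinases and factors for myosin folding. In edgeR 5 of 13 tested genes were lower and 0 were higher, where 13.9% and 13.2% of all genes were. The count of higher genes was 0 at an unadjusted p under 0.05 and with DESeq2, and 1 in limma on FPKM. Under the marker scaling 0 were lower and 3 higher. The median log2 fold change was -0.38, and 0.40 under the marker scaling, where that of all genes was 0.89. mybpc3, cardiac myosin binding protein C, was at 1153 ± 452 CPM in DKO and 2421 ± 670 CPM in CTRL hearts, a log2 fold change of -1.07 (adjusted p = 0.00192). myom1a, a myomesin gene of the M-band, was at -1.09 (adjusted p = 4.83e-05), with the groups apart. The genes for the folding of the myosin head, unc45b (-0.63, adjusted p = 0.0129), smyd1b (-0.60, adjusted p = 0.0146) and hsp90aa1.1 (-0.63, adjusted p = 0.00306), were lower. Under the marker scaling all 3 changed sign, and mybpc3 (-0.32, adjusted p = 0.0925) and myom1a (-0.26, adjusted p = 0.225) did not pass.

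Of 8 genes tied to the identity of the ventricle or its growth, 3 were lower and 1 was higher at an adjusted p under 0.05, against 13.9% and 13.2% of all genes. Under the marker scaling 2 were lower and 4 higher, where the median log2 fold change of all genes was 0.89. With TMM the median of the 8 genes was 0.08. It lay between -0.05 (without DKO replicate 7) and 0.19 (without DKO replicate 4) when 1 library was left out. irx1a was at 61.2 ± 20.5 CPM in DKO and 151 ± 33.0 CPM in CTRL hearts (log2 fold change -1.31, adjusted p = 5.96e-05). hey2, which encodes a repressor of atrial genes in the ventricle, was at 41.0 ± 16.4 CPM in DKO and 95.1 ± 16.6 CPM in CTRL hearts (log2 fold change -1.21, adjusted p = 3.56e-04). For both genes the groups were apart. Under the marker scaling irx1a was at -0.53 (adjusted p = 0.00394) and hey2 at -0.48 (adjusted p = 0.00994), both under the fold limit of the call. nkx2.5, which maintains ventricular identity, was at -0.79 (adjusted p = 0.0111, and -0.03 with adjusted p = 0.864 under the marker scaling), and fgf8a, a growth factor gene, was at 0.74 (adjusted p = 0.00769). The genes of the list that did not pass were irx1b (0.54), irx4a (0.27), irx4b (0.84) and nkx2.7 (-0.11), with adjusted p from 0.137 to 0.722. The first 3 of these lay above 0, opposite to irx1a. nkx2.5 and nkx2.7 are themselves among the 20 scaling markers, so their values under that scaling are no separate check.

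Of 4 atrial identity genes, 3 were higher at an adjusted p under 0.05 and 0 were lower (0 also at an unadjusted p under 0.05 and with DESeq2), against 13.2% and 13.9% of all genes. Their median log2 fold change was 0.39. All 4 were higher under the marker scaling (median 1.26), where the median log2 fold change of all genes was 0.89. The gene that did not pass with TMM, tbx5a, was at -0.14 there (adjusted p = 0.717). tbx5a is itself among the scaling markers, so its value under that scaling is no separate check. nr2f1b was at 33.2 ± 9.69 CPM in DKO and 17.6 ± 8.96 CPM in CTRL hearts (log2 fold change 0.92, adjusted p = 0.0129). nr2f2 was at 183 ± 27.8 CPM in DKO and 132 ± 17.4 CPM in CTRL hearts (0.48, adjusted p = 0.00193), and nr2f1a was at 0.30 (adjusted p = 0.036). None of the 3 met all criteria of the call, and nr2f1a lost its adjusted p without any 1 of DKO replicates 3, 6 and 8 or CTRL replicates 2, 4, 6, 7 and 8 (adjusted p up to 0.0778). NR2F factors are also expressed outside the atrium, and the cells these reads came from cannot be told apart in pooled hearts.

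**Figure D5:**
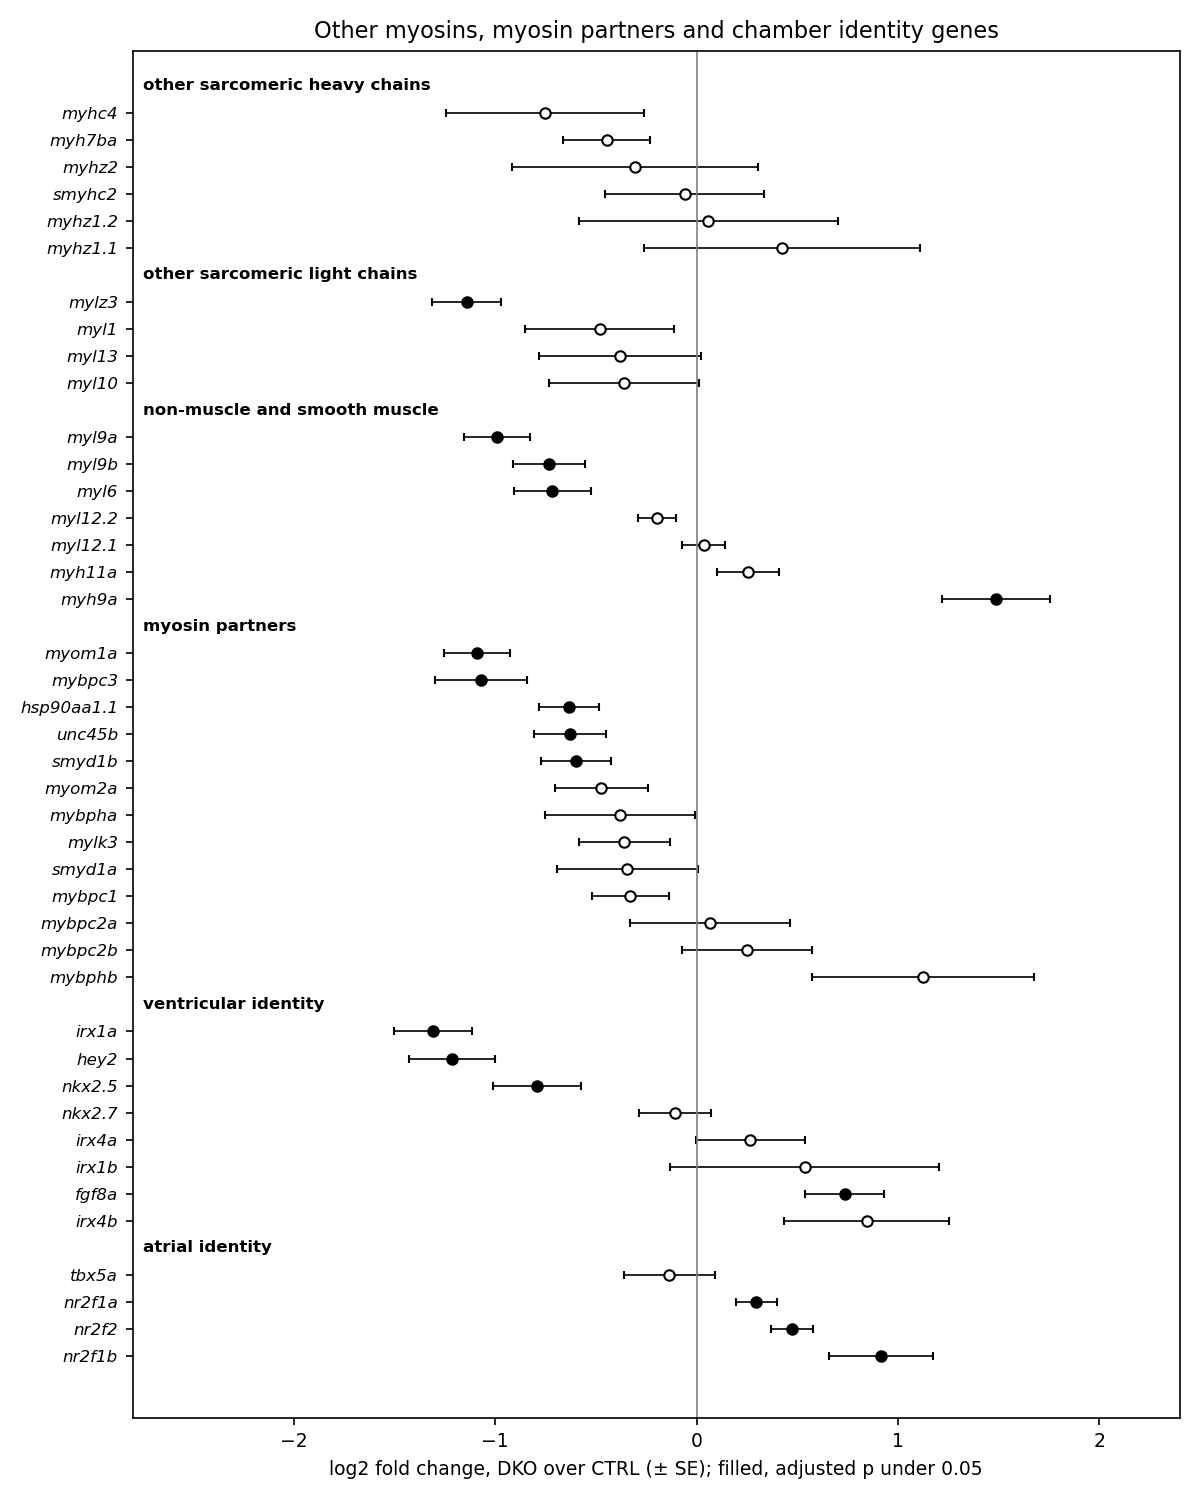
Log2 fold change, DKO over CTRL, of the tested genes among other myosins, myosin partners and chamber identity genes, with error bars of 1 SE. Filled points have an adjusted p under 0.05 in edgeR's quasi-likelihood test. Among the myosins and their partners the filled points lie left of 0 except that of myh9a at 1.49. Among the identity genes the filled points of irx1a, hey2 and nkx2.5 lie left of 0. Those of fgf8a, nr2f1a, nr2f1b and nr2f2 lie right of 0.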

How the data were processed

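Libraries of 8 DKO and 8 CTRL heart pools were compared. The authors aligned paired 150-base reads to GRCz11 with STAR 2.6.1a and counted them with HTSeq 0.11.2, and the deposited counts are raw whole reads per gene symbol. The deposited FPKM values, in 1 table made by the authors, are per kilobase of gene span. HTSeq's rows without a gene held 59.6 to 65.6% (no feature) and 12.8 to 16.4% (not unique) of each file and were left out. The strand setting is not given in the sources used here, so overlapping genes could share reads.

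Counts were filtered (filterByExpr), scaled by TMM and tested with the quasi-likelihood test of edgeR 4.0.16 in R 4.3.3, without covariates, with Benjamini-Hochberg adjustment over all genes tested. Ratios used counts plus 0.5 and two-sided exact permutation tests over libraries (12870 assignments). Alternatives, with DESeq2 1.42.0 and limma 3.58.1 among them, are given in the closing section. The scripts were tested on simulated data. Figures were drawn with matplotlib 3.10.9.

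The text names the 7 chamber myosin symbols, rbfox1l, rbfox2, every gene past an adjusted p of 0.05 in the lists of other myosins, myosin partners and chamber identity, and the 3 genes with the steadiest ratio to each member. Some genes that did not pass are named beside them. Members and lists were chosen with earlier results of these data known. Replicates are separate pools of hearts according to the methods. No 2 libraries agreed within sampling noise (chi-square per gene of at least 10.8), and p-values measure the spread between these pools. Libraries were not treated as paired by replicate number, as deviations of same-numbered libraries correlated at -0.27 to 0.11. That cannot exclude a pairing by clutch, as the study compared DKO embryos with siblings of their clutch. Results with the replicate number as a block are given in the closing section.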

Additional observations from a re-analysis of the deposited data

Results flagged for a closer look

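CTRL replicate 5 stood apart from the other 7 CTRL libraries in 5 of the ratios within a library, each time with relatively little myh7 or myh6. Its log2 ratio was 0.10 for myh7l over myh7, where the next CTRL library was at -0.42. It was the lowest CTRL library for myh7 over myh6 at 1.66 (next 1.91), for myh7 over cmlc1 at 0.19 (next 1.01), for myh7 over myl7 at -0.79 (next 0.07) and for myh6 over myl7 at -2.45 (next -1.97). In each case the gap to the nearest library took up 0.57 to 0.73 of the range of the 8 CTRL libraries, above the critical value of Dixon's test, which chance passes in about 1 in 20 groups, and 42 groups of 8 values were examined. The 5 ratios share genes, so they are not separate events. CTRL replicate 5 also had the fewest genes with reads of all 16 libraries (12392, against 13216 to 13543 in the other CTRL libraries). Its TMM factor (0.864) and its share of reads that were not unique (12.8%) were the lowest as well. Whether these traits bear on its ratios was not tested. Each of the 5 differences between DKO and CTRL kept its call without CTRL replicate 5.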

How the results depend on the processing

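Direction and call of myh7l, cmlc1 and myl7 held when any 1 library was left out (3 chamber myosins called lower and 0 higher each time, over 16 fits). Genes called lower ranged from 509 to 589 and genes called higher from 337 to 422 over those fits, against 548 and 390 with all libraries. The difference in the log2 ratio of myh7l over myh6 ranged from -1.05 to -0.96, and the pairs of myosins past the test from 11 to 12. With medians in place of means 11 pairs passed, myl7 over myl4 being lost.

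Scaling to cardiomyocyte markers left 1 chamber myosin called lower and 2 higher, with 69 genes lower and 2709 higher in all. It turned the sign of myh7 (0.70), myh6 (0.40), unc45b (0.15), smyd1b (0.17), hsp90aa1.1 (0.25), myl6 (0.17) and myl9b (0.092), as the scaling itself moved the median gene by construction. myh7 also changed sign with library size alone (0.082), in limma on log2(FPKM + 1) and log2(FPKM + 0.1) (0.039 in both), and without DKO replicate 1, 4 or 5 or CTRL replicate 1 or 3. Over the fits that left out 1 library it ranged from -0.14 to 0.044. myl4 changed sign without DKO replicate 1, with a range of -0.0026 to 0.50 over those fits. Without the FPKM threshold, 1004 genes were lower and 1065 higher.

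The split of lower against higher calls was 415 to 524 with library size alone and 372 to 465 or 418 to 519 in limma with a pseudocount of 1 or 0.1, against 548 to 390 with TMM. The log2 difference in the ventricular to atrial ratio was -0.11 (p = 0.1459) with myh7 and myh7l summed and 0.31 (p = 0.0006216) with myh7 alone, both exact permutation tests and both chosen after the data were seen. vmhc alone over myh6 could not give a value, as vmhc has no row. With the replicate number as a block, the ratio of myh7l over myh6 kept its difference of -0.9995 (exact sign-flip p = 0.007812), 557 genes were lower and 409 higher, 1 skeletal muscle marker was higher, and no call of a chamber myosin changed. Counts set little limit for 5 of the 6 genes, and only myl4, with 103 to 956 reads, was thinly read.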
